A study of Mus musculus with 12 samples.

Results

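The 31 genes described here encode the chaperones that fold secreted proteins in the endoplasmic reticulum (ER), the machinery that removes misfolded proteins from it, and the sensors, transcription factors and targets of the unfolded protein response. They were listed by name for these roles, with earlier results of these data known, and were matched by symbol to the Ensembl IDs of the count files. All 31 were found among 57010 IDs, and all 31 were among the 14253 genes that passed the filter on low counts. They comprise 7 ER chaperones, 5 disulfide isomerases and related proteins, 3 DnaJ co-chaperones, 5 genes of ER-associated degradation, 3 stress sensors, 4 transcription factors and 4 targets of ATF4 and CHOP.

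The libraries came from primary mouse chondrocytes, the cells that make cartilage matrix, isolated from tissue rather than drawn from an established cell line. Each of 3 groups held 4 libraries. The labels give the Wild type genotype for every group. One group is labelled Control, another WT, which the study text describes as transfection with a wild-type plasmid (read here as wild-type SIRT5), and the last SIRT5F101L mutant, a plasmid for SIRT5 with the F101L change. SIRT5, found mainly in mitochondria, is a sirtuin that takes acidic acyl groups such as malonyl off the lysines of proteins. What the Control cells received, the time after transfection, and the age, sex and number of the mice are not given in the sources used here. The labels do not say that the 4 libraries of a group came from separate cultures or animals, so p-values measure the spread between these libraries only, which may be technical.

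Secreted collagens and proteoglycans are folded in the ER, where BiP and GRP94 hold unfolded chains, calnexin and calreticulin hold glycoproteins, and protein disulfide isomerases form their disulfide bonds. When unfolded protein builds up, 3 sensors in the ER membrane respond. IRE1 splices the Xbp1 message, ATF6 is cut to release a transcription factor, and PERK phosphorylates eIF2 alpha, which slows translation in general but favours the ATF4 message. ATF6 and XBP1 act mainly on chaperone and degradation genes, often through the ER stress response element (ERSE). ATF4 acts on amino acid metabolism and on Ddit3, which encodes CHOP, and can also be activated by other eIF2 alpha kinases that sense amino acid shortage, heme shortage or viral RNA. Chondrocytes secrete large amounts of matrix, and cartilage is known to be sensitive to ER stress.

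Elements of the ER stress response in the promoters of these genes are shown so that the change of each gene can be read beside its promoter. RefSeq promoter windows on build GRCm38.p6, running from 250 bases before to 50 bases after a start site, were found for 27 of the 31 genes. Those of Hyou1, Manf, Derl1 and Atf6 were not analysed here. Both strands were searched for the ERSE, which is CCAAT and CCACG with 9 bases between them, and for ERSE-II, which is ATTGG and CCACG with 1 base between them. The ERSE was found in 8 of the 27 genes and in 39 of all 32851 windows of the same length (0.119%). ERSE-II was found in 2 of the 27 genes and in 12 windows (0.037%). Each element is written 5′ to 3′ on the strand on which it matches, with its half-sites in capitals. Bases are counted from the start site, and genome positions are on GRCm38.p6, which is not the build of the counts (GRCm39).
Hspa5, chr2:34772025-34772043, bases -65 to -47: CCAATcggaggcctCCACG
Hsp90b1, chr10:86705638-86705656, bases -212 to -194: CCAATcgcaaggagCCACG
Hsp90b1, chr10:86705533-86705551, bases -107 to -89, opposite strand: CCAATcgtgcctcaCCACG
Calr, chr8:84847075-84847093, bases -162 to -144, opposite strand: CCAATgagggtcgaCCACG
Canx, chr11:50325800-50325818, bases -145 to -127: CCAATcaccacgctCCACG
Pdia6, chr12:17266491-17266509, bases -98 to -80: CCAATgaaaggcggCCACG
Creld2, chr15:88819520-88819538, bases -126 to -108, opposite strand: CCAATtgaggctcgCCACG
Dnajc3, chr14:118937827-118937845, bases -105 to -87: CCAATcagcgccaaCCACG
Syvn1, chr19:6046532-6046550, bases -44 to -26: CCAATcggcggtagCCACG
Herpud1 (ERSE-II), chr8:94386377-94386387, bases -52 to -42: ATTGGgCCACG
Dnajb11 (ERSE-II), chr16:22857852-22857862, 8 to 18 bases after the start: ATTGGcCCACG

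Longer context is given for the promoters of 3 genes that went different ways below: Hspa5, whose level was not called different, Hsp90b1, which rose, and Herpud1, which fell. Each run holds the 250 bases before the start site, 5′ to 3′ on the strand of the gene, with the half-sites in capitals. Where the element lies on the opposite strand, as does the second in Hsp90b1, it reads CGTGG and then ATTGG.
Hspa5, chr2:34771840-34772089, plus strand: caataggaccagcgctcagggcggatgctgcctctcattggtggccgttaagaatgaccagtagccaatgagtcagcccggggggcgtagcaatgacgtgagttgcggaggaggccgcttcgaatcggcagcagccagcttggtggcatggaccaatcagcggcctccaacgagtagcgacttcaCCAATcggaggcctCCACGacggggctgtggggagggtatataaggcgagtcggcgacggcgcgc
Hsp90b1, chr10:86705445-86705694, minus strand: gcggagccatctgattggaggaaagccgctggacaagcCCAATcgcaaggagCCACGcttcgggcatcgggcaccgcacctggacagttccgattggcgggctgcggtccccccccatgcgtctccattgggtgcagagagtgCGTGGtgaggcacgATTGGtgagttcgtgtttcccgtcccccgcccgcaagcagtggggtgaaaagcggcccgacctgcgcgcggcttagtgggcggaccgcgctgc
Herpud1, chr8:94386179-94386428, plus strand: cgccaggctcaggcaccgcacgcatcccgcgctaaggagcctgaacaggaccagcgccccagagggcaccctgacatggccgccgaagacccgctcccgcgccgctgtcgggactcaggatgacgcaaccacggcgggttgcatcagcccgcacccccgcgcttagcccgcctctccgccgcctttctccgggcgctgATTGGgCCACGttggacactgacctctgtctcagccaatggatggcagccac

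None of the 4 transcription factors and 4 ATF4 and CHOP targets, all of which had a window, held an ERSE or ERSE-II. A search of the same windows for the unfolded protein response element (UPRE, TGACGTGG) and for the C/EBP-ATF element that ATF4 binds (TGATGNAAT) found neither in the 27 genes, against 0.676% and 0.965% of all windows. The cyclic AMP response element (CRE, TGACGTCA) was found in Ppp1r15a, 12 to 5 bases before the start, and in 1.79% of all windows. No motif overlapped another in these promoters. A match describes letters, not bound sites, and a missing match says nothing of the factor.

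Levels are given as CPM, the count of a gene relative to the library's total after TMM scaling, and a gene is called higher or lower where edgeR's quasi-likelihood test gave a Benjamini-Hochberg adjusted p under 0.05 over the 14253 genes. Libraries held 15095357 to 24242139 counts. The 31 genes together took 1.22% to 1.25% of the counts in Control libraries, 1.14% to 1.21% in WT and 1.10% to 1.19% in SIRT5F101L. Per kilobase of transcript, Calr led the Control libraries at 898 CPM per kb, followed by P4hb at 838, Pdia3 at 543 and Hspa5 at 411. The sensors stood lowest, with Eif2ak3 at 15.3, Atf6 at 10.3 and Ern1 at 5.21 CPM per kb. The species of the SIRT5 sequence on the plasmids is not given in the sources used here. Mouse Sirt5 had 9 to 16 counts in Control, 1 to 9 in WT and 9 to 19 in SIRT5F101L libraries, and was not called different in any comparison. These counts therefore give no check of the labels, and whether they could include reads from the plasmids is not known. IDs on the X chromosome (2414), the Y chromosome (1547) and the mitochondrial genome (37) are all listed at 0 in every library, so the account is limited to autosomal genes. Some autosomal genes named below are listed at 0 as well.

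Against Control, Atf4, Atf5, Ddit3 and the 4 targets of ATF4 and CHOP were called lower in both plasmid groups, Ern1 and Atf6 were called higher in both, and the chaperones and isomerases moved in both directions by less than 2-fold. In WT, 8 of the 31 genes were called higher and 13 lower, where 28.7% of all tested genes were called higher and 28.1% lower (56.8% in either direction). In SIRT5F101L, 7 were called higher and 15 lower, where 30.0% of all genes were called higher and 30.7% lower (60.7% together). The median log2 fold change of the 31 genes was -0.09 in WT and -0.17 in SIRT5F101L, beside -0.01 and -0.02 over all tested genes. The genes lower by at least 2-fold were the same 7 in each comparison: Atf4, Atf5, Ddit3, Trib3, Chac1, Asns and Herpud1. Over all genes, 7.56% in WT and 7.67% in SIRT5F101L were called lower by at least 2-fold. None of the 31 was called higher by that much, as 9.10% and 9.84% of all genes were. The libraries of the compared groups did not overlap for any of the 21 genes called in WT, nor for 21 of the 22 called in SIRT5F101L, the exception being Pdia6. Over all genes, groups stood apart without overlap for 26.9% (higher) and 26.5% (lower) in WT, and for 25.7% each way in SIRT5F101L. The comparisons share the Control libraries, so their common calls are not independent.

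**Figure D1:**
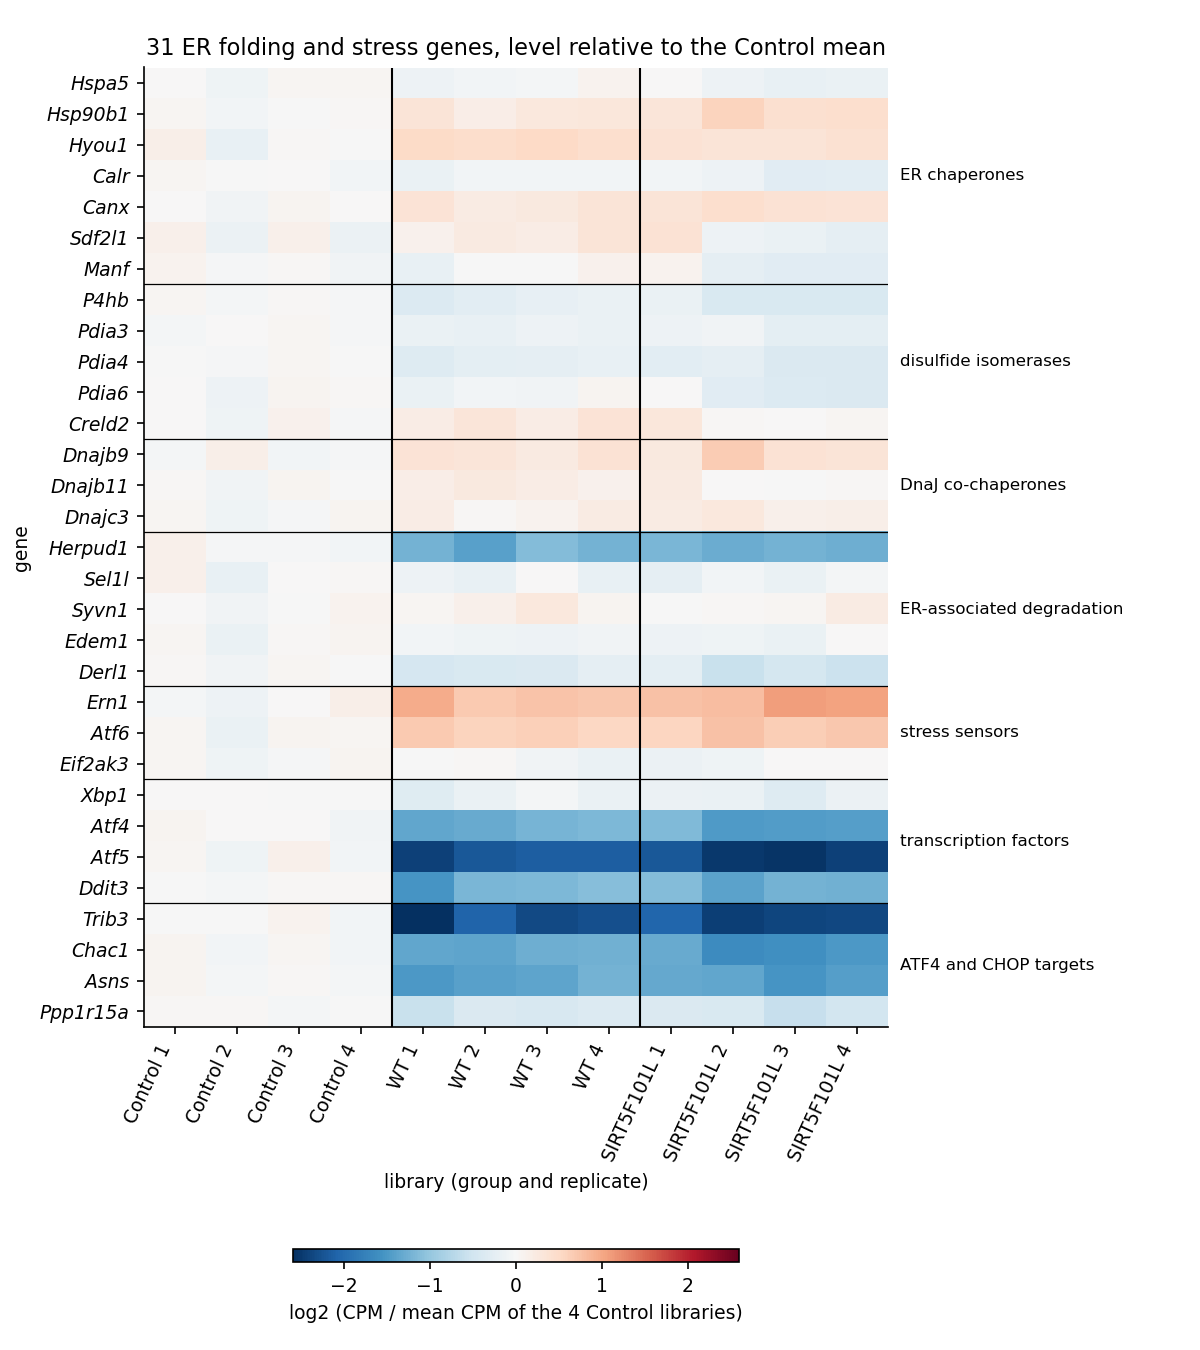
Level of each of the 31 genes (rows, by role) in each of the 12 libraries (columns), as the log2 ratio of its CPM to the mean CPM of the 4 Control libraries, blue for lower and red for higher. The rows from Atf4 to Asns and the row of Herpud1 are blue in all 8 plasmid libraries, and those of Ern1 and Atf6 are red.

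Of the 4 transcription factors, all were called lower in both plasmid groups. Atf4, the factor whose message is translated when eIF2 alpha is phosphorylated, stood at 391, 373, 371 and 348 CPM in Control, at 146, 150, 160 and 165 in WT, and at 167, 133, 136 and 137 in SIRT5F101L. Every plasmid library lay below the lowest Control library, and both plasmid groups overlapped. Its log2 fold change was -1.25 (SE 0.07, adjusted p 7.83e-12 by edgeR) in WT and -1.37 (SE 0.07, adjusted p 1.84e-12) in SIRT5F101L. Atf5, a related factor with the same kind of translational control, fell further. Its levels were 321, 286, 338 and 293 CPM in Control, 57.9, 67.4, 70.2 and 70.3 in WT, and 67.6, 54.4, 52.9 and 57.6 in SIRT5F101L. No plasmid library came near the Control range, and the mean was 4.66-fold lower in WT (adjusted p 8.52e-15 by edgeR) and 5.33-fold lower in SIRT5F101L (adjusted p 2.46e-15). In the GENCODE M21 annotation 4.11% of the exon bases of Atf5 lie in other genes.

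Ddit3, the gene of the pro-apoptotic factor CHOP, stood at 122, 118, 125 and 126 CPM in Control, at 42.3, 53.6, 54.5 and 56.8 in WT, and at 56.5, 46.7, 52.7 and 51.4 in SIRT5F101L. The Control libraries lay within a narrow range and far above the rest, with log2 fold changes of -1.25 (SE 0.08, adjusted p 5.20e-11 by edgeR) in WT and -1.24 (SE 0.08, adjusted p 4.88e-11) in SIRT5F101L. Its exon bases overlap other genes by 10.9%, and a second ID of the same name (ENSMUSG00000116429) is at 0 in all libraries. Xbp1, the target of IRE1 splicing, changed least of the 4 factors. Its levels were 150 to 152 CPM in the 4 Control libraries, 121, 134, 145 and 135 in WT, and 135, 133, 119 and 135 in SIRT5F101L. All plasmid libraries were below Control, by 0.18 (SE 0.06, adjusted p 0.0202 by edgeR) and 0.21 (SE 0.06, adjusted p 0.00660) on the log2 scale. The call was lost in both groups when each library's trend with transcript length was taken out (log2 fold changes of -0.13 and -0.12), and in WT without WT replicate 1 (-0.13). Gene counts do not separate the spliced from the unspliced Xbp1 message.

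The 4 targets of ATF4 and CHOP were called lower in both groups as well. Trib3, a pseudokinase that binds AKT and feeds back on ATF4, stood at 100.96, 100.7, 109 and 97.0 CPM in Control, at 16.6, 24.1, 20.0 and 21.0 in WT, and at 24.3, 18.6, 19.5 and 19.8 in SIRT5F101L. Its log2 fold changes, -2.32 (SE 0.10, adjusted p 5.43e-14 by edgeR) and -2.31 (SE 0.10, adjusted p 5.46e-14), were close to those of Atf5, and the groups were far apart. Asns, asparagine synthetase, had 211, 195, 206 and 193 CPM in Control, 71.7, 75.4, 77.5 and 85.6 in WT, and 80.5, 79.5, 69.7 and 74.8 in SIRT5F101L. No plasmid library came near the Control range, with log2 fold changes of -1.38 (SE 0.07, adjusted p 4.75e-13 by edgeR) and -1.41 (SE 0.07, adjusted p 3.29e-13). Chac1, which degrades glutathione, had 60.6 to 67.1 CPM in Control, 24.8 to 27.0 in WT and 20.5 to 25.6 in SIRT5F101L. Its plasmid groups overlapped only through SIRT5F101L replicate 1, the highest of its group. The fold changes of Chac1 were -1.31 (adjusted p 1.28e-11 by edgeR) and -1.50 (adjusted p 1.45e-12) on the log2 scale. Ppp1r15a, which encodes GADD34, the phosphatase subunit that reverses eIF2 alpha phosphorylation, fell less. It stood at 87.6 to 92.0 CPM in Control, 60.0 to 70.4 in WT and 59.8 to 69.8 in SIRT5F101L, again with no overlap between Control and plasmid libraries, at -0.43 and -0.46 on the log2 scale (adjusted p 1.19e-05 and 5.36e-06 by edgeR).

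**Figure D2:**
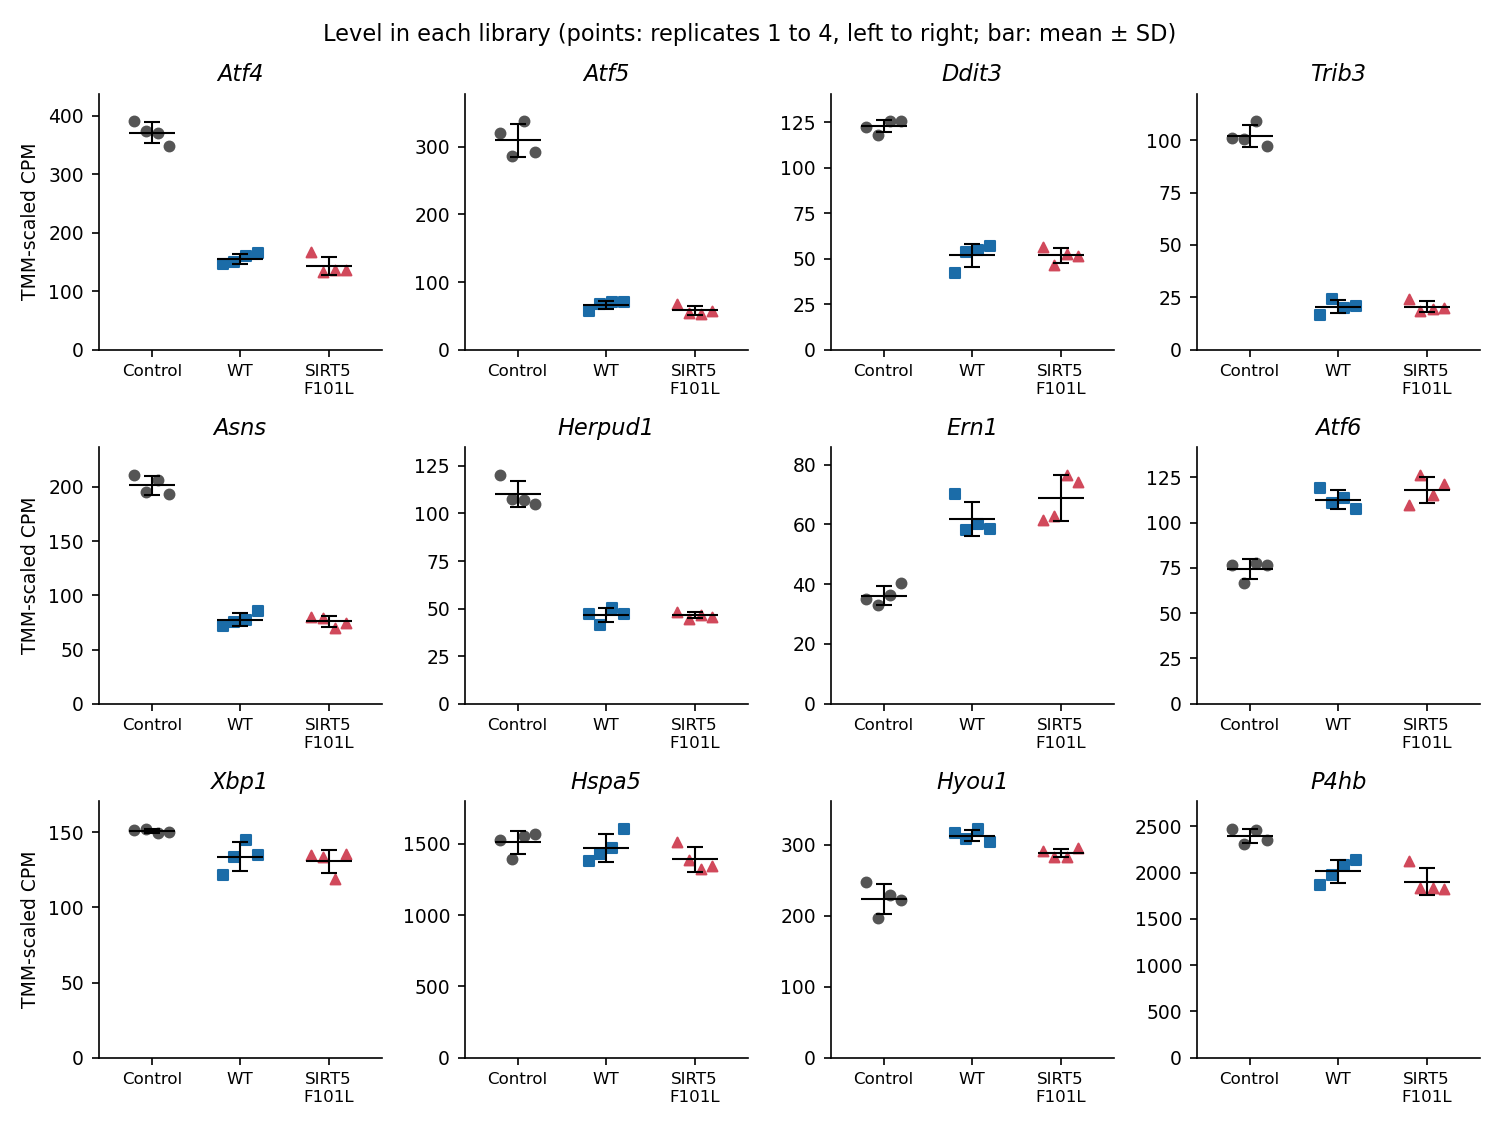
TMM-scaled CPM of 12 of the 31 genes in each library (points, replicates 1 to 4 from left to right) with the mean and SD of the 4 libraries of a group. Control lies above both plasmid groups for Atf4, Atf5, Ddit3, Trib3, Asns, Herpud1 and P4hb, and below them for Ern1, Atf6 and Hyou1, with no overlap, while the groups overlap for Hspa5.

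Among the 3 sensors, the genes of IRE1 and ATF6 rose and that of PERK was not called. Ern1, which encodes IRE1 alpha, had 35.1, 33.0, 36.3 and 40.4 CPM in Control, 70.2, 58.2, 60.3 and 58.5 in WT, and 61.5, 63.0, 76.6 and 74.4 in SIRT5F101L. This was the largest rise among the 31 genes, with log2 fold changes of 0.77 (SE 0.09, adjusted p 2.86e-07 by edgeR) and 0.93 (SE 0.09, adjusted p 1.78e-08) and no overlap with Control. Atf6 had 76.7, 66.4, 77.7 and 76.7 CPM in Control, 119, 111, 114 and 107 in WT, and 110, 126, 115 and 121 in SIRT5F101L. Its log2 fold changes were 0.60 (SE 0.07, adjusted p 1.52e-07 by edgeR) and 0.67 (SE 0.07, adjusted p 3.06e-08). The rise of Atf6 in SIRT5F101L was 0.42 at its smallest over the alternatives, without SIRT5F101L replicate 1 and with the length trend taken out. Eif2ak3, the gene of PERK, had 64.1 to 72.8 CPM in Control, 61.4 to 70.1 in WT and 62.2 to 69.5 in SIRT5F101L. The ranges coincide almost entirely, and the 95% intervals of its log2 fold changes, -0.20 to 0.08 and -0.19 to 0.08, exclude rises of the size seen for the other sensors. With the length trend taken out, Eif2ak3 was called lower in SIRT5F101L, at -0.15 (adjusted p 0.0252 by edgeR). Other genes overlap 8.05% of its exon bases, and 10.8% of its transcript has a copy in Gm43292.

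The 7 ER chaperones divided. Hspa5, which encodes BiP, the main chaperone of the ER and the usual marker of the unfolded protein response, had 1529, 1392, 1555 and 1569 CPM in Control, 1380, 1430, 1469 and 1605 in WT, and 1512, 1384, 1321 and 1346 in SIRT5F101L. The groups overlapped, and neither fold change was called: -0.04 (95% interval -0.17 to 0.10, adjusted p 0.635 by edgeR) in WT and -0.12 (-0.26 to 0.02, adjusted p 0.119) in SIRT5F101L. The latter was called lower, at -0.16, without SIRT5F101L replicate 1 and likewise without Control replicate 2, at -0.16 with upper-quartile scaling, at -0.17 with the length trend taken out, and at -0.22 with this and without SIRT5F101L replicate 1. The rising chaperones were Hyou1, Hsp90b1 and Canx, in both groups. Hyou1, a large chaperone and exchange factor for BiP, had 248, 197, 229 and 222 CPM in Control, 316, 308, 322 and 304 in WT, and 291, 283, 283 and 295 in SIRT5F101L. All plasmid libraries exceeded the highest Control library, with log2 fold changes of 0.48 (SE 0.06, adjusted p 1.59e-06 by edgeR) and 0.36 (SE 0.06, adjusted p 4.72e-05). In SIRT5F101L it remained called at 0.21 without replicate 1 and with the length trend taken out.

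Hsp90b1, the gene of GRP94, had 448, 409, 430 and 438 CPM in Control, 546, 488, 524 and 531 in WT, and 536, 640, 574 and 582 in SIRT5F101L. The Control libraries were again the lowest, with log2 fold changes of 0.28 (adjusted p 0.000729 by edgeR) and 0.44 (adjusted p 4.68e-06). Other genes overlap 15.7% of its exon bases. Canx, the membrane-bound lectin calnexin, had 610 to 683 CPM in Control, 756 to 837 in WT and 829 to 886 in SIRT5F101L, at 0.29 and 0.38 on the log2 scale (adjusted p 0.000205 and 9.29e-06 by edgeR). Its soluble counterpart Calr, calreticulin, went the other way. It had 1869 to 2045 CPM in Control, 1729 to 1879 in WT and 1599 to 1866 in SIRT5F101L, and was called lower only in the latter, by 0.19 on the log2 scale (adjusted p 0.0124 by edgeR), with -0.09 in WT (adjusted p 0.204). The call was lost without SIRT5F101L replicate 3 (-0.16) and with the length trend taken out (-0.11). Sdf2l1, a part of the BiP complex, had 44.6 to 54.7 CPM in Control, 53.8 to 62.3 in WT and 42.5 to 64.3 in SIRT5F101L. Manf, a secreted cofactor of BiP, had 149 to 170, 140 to 172 and 130 to 169 CPM in the same order. Neither was called in either group, and in both of these genes SIRT5F101L replicate 1 stood well above the other 3 libraries of its group. Without it, Manf was called lower in SIRT5F101L (-0.27) and Sdf2l1 higher in WT (0.22). Sdf2l1 was also called higher in WT with only the 8 libraries compared (0.24), with no filter beyond 1 count (0.22) and with the length trend taken out (0.28), and Manf lower in SIRT5F101L with no filter beyond 1 count (-0.18). Other genes overlap 9.25% of the exon bases of Manf.

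The disulfide isomerases were mostly lower. P4hb, which forms disulfide bonds and is also the beta subunit of collagen prolyl 4-hydroxylase, had 2472, 2309, 2455 and 2357 CPM in Control, 1865, 1971, 2081 and 2134 in WT, and 2129, 1833, 1833 and 1822 in SIRT5F101L. No plasmid library reached the Control range, and the log2 fold changes were -0.25 (SE 0.07, adjusted p 0.00254 by edgeR) and -0.33 (SE 0.07, adjusted p 0.000186). Pdia4 had 397 to 418 CPM in Control, 323 to 354 in WT and 312 to 345 in SIRT5F101L, at -0.26 and -0.31 on the log2 scale (adjusted p 0.000511 and 5.72e-05 by edgeR). Pdia3, which works with calnexin and calreticulin on glycoproteins, had 1462 to 1550, 1325 to 1381 and 1262 to 1407 CPM, at -0.16 and -0.18 (adjusted p 0.0175 and 0.00921 by edgeR). The ranges of these genes did not overlap with Control, although the call of Pdia3 in WT was lost without Control replicate 3 (-0.15). Pdia6 was called lower in SIRT5F101L, by 0.24 on the log2 scale (adjusted p 0.0127 by edgeR), though SIRT5F101L replicate 1, at 624 CPM, lay among the Control libraries at 566 to 647. It was the one called gene with overlapping groups, and its call was lost without SIRT5F101L replicate 3 (-0.21). In WT its log2 fold change was -0.06 (adjusted p 0.526). Creld2, which binds several isomerases and is well known in cartilage ER stress, had 62.2 to 72.5 CPM in Control, 76.4 to 85.6 in WT and 66.9 to 81.7 in SIRT5F101L. It was called higher in WT, at 0.26 (adjusted p 0.00445 by edgeR), and stood at 0.10 (adjusted p 0.271) in SIRT5F101L. With the length trend taken out it was called higher there too, at 0.23 (adjusted p 0.00195 by edgeR).

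The 3 DnaJ co-chaperones, which bring substrates to BiP and stimulate its ATPase, had positive fold changes throughout. Dnajb9, also called ERdj4, had 58.1, 67.6, 57.4 and 58.8 CPM in Control, 77.2, 74.8, 70.7 and 78.5 in WT, and 72.3, 95.5, 78.7 and 76.3 in SIRT5F101L. It rose in both groups without overlap, by log2 fold changes of 0.32 (SE 0.08, adjusted p 0.00237 by edgeR) and 0.41 (SE 0.08, adjusted p 0.000177). Dnajb11 was called higher in WT, with 204 to 223 CPM against 176 to 196 in Control (0.19, adjusted p 0.0155 by edgeR), and had 186 to 219 in SIRT5F101L (0.07, adjusted p 0.348). Its call in WT was lost with upper-quartile scaling (0.14), without Control replicate 2 (0.15) and without WT replicate 2 (0.16). Dnajc3, which also inhibits PERK, was called higher in SIRT5F101L, with 216 to 239 CPM against 182 to 206 in Control (0.20, adjusted p 0.00936 by edgeR). In WT it had 200 to 229 CPM (0.13, adjusted p 0.0665), and was called there with only the 8 libraries compared (0.15) and without WT replicate 2 (0.17) or SIRT5F101L replicate 1 (0.14). Its fold change in SIRT5F101L was 0.06, and not called, with the length trend taken out.

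In ER-associated degradation, Herpud1 and Derl1 fell in both groups, Herpud1 by more, and the other 3 genes were not called. Herpud1, which gathers the degradation complex and is induced by both ATF4 and ATF6 in other cells, had 120, 108, 107 and 105 CPM in Control, 47.2, 41.6, 50.4 and 47.2 in WT, and 48.5, 44.8, 46.9 and 45.9 in SIRT5F101L. Its log2 fold change was -1.24 (SE 0.07) in both comparisons, with adjusted p of 3.70e-12 and 3.29e-12 by edgeR and no overlap with Control. Derl1, a channel component, had 259 to 284 CPM in Control, 202 to 234 in WT and 184 to 231 in SIRT5F101L, at -0.36 and -0.46 on the log2 scale (adjusted p 0.000234 and 1.45e-05 by edgeR). Reads of Derl1 are less certain, since 20.0% of its transcript has a copy of at least 95% identity in Gm35638. Sel1l and Syvn1, which form the ubiquitin ligase complex, and Edem1, which trims the mannose of misfolded glycoproteins, were not called. Their log2 fold changes were -0.13 and -0.13 for Sel1l, 0.13 and 0.07 for Syvn1, and -0.10 and -0.10 for Edem1, with overlapping groups. With the length trend taken out, Sel1l was called lower in both groups (-0.25 and -0.32) and so was Edem1 (-0.21 and -0.28). Both were also called lower without Control replicate 2, the lowest Control library for each, at -0.19 and -0.19 for Sel1l and at -0.15 and -0.15 for Edem1. Syvn1 was called higher in WT, at 0.15, with only the 8 libraries compared.

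**Figure D3:**
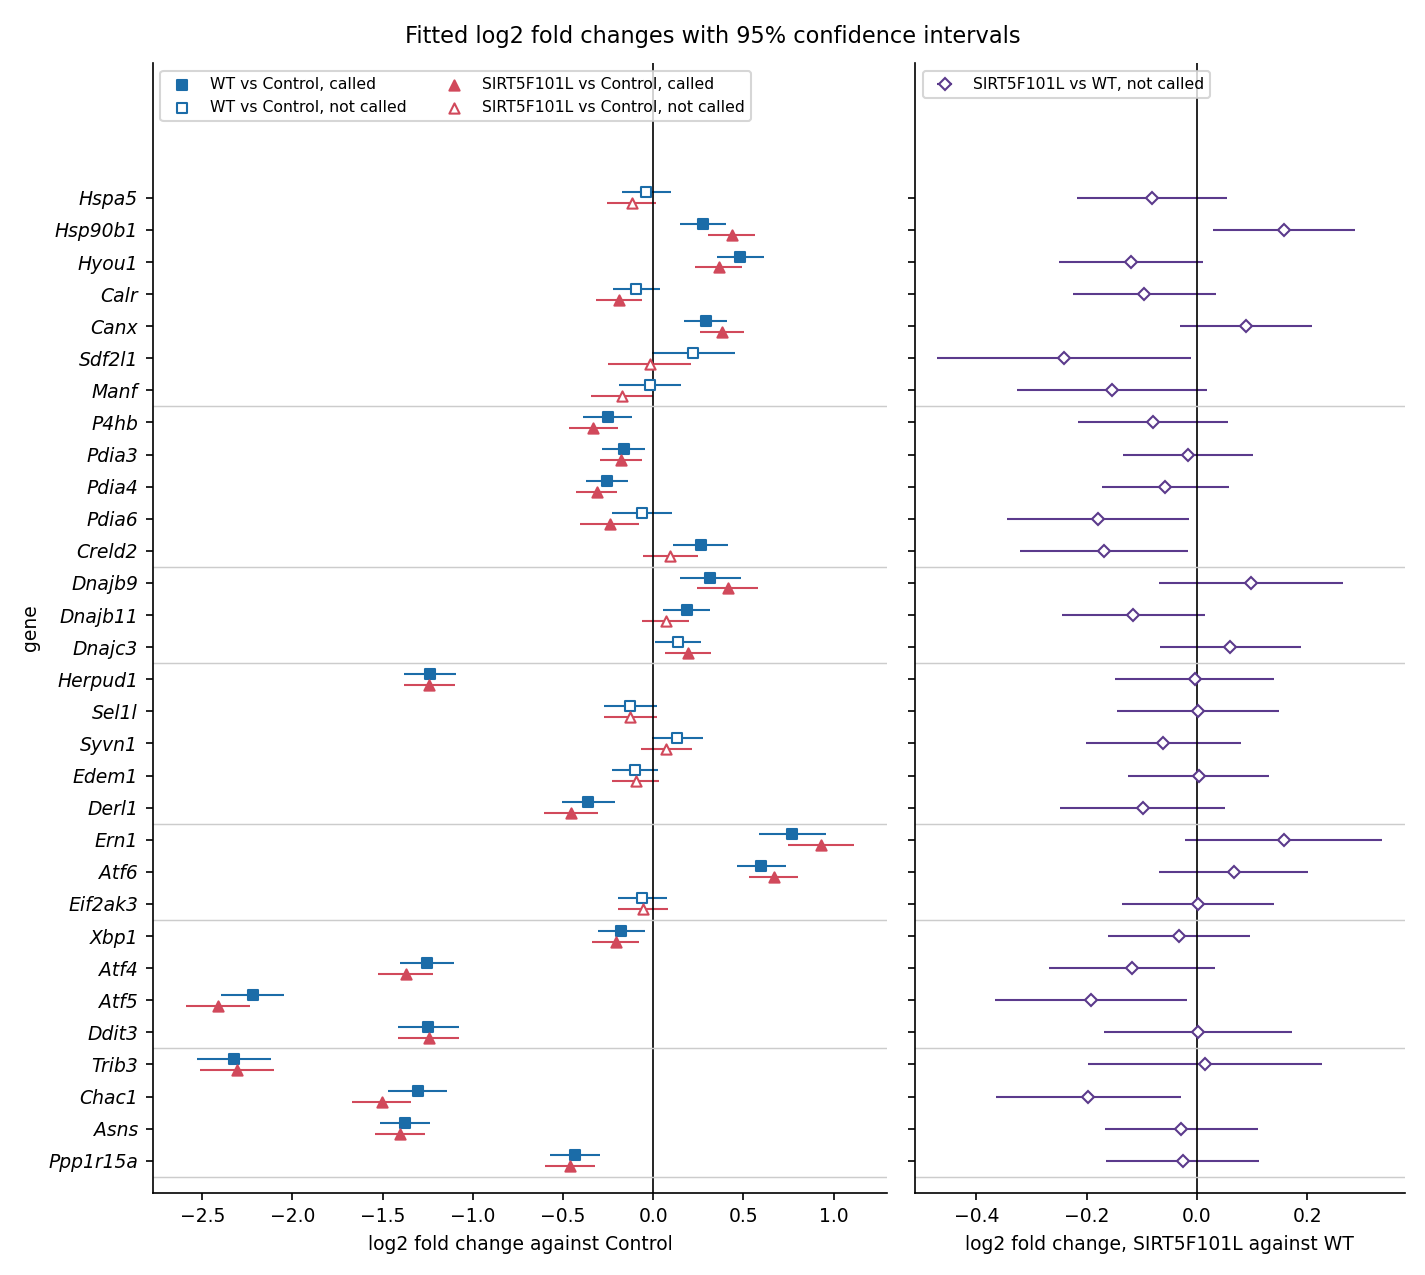
Fitted log2 fold changes of the 31 genes with 95% confidence intervals, left for WT and SIRT5F101L against Control (filled where called) and right for SIRT5F101L against WT (none called). The ATF4 branch and Herpud1 lie between -2.41 and -0.43 on the left, Ern1 and Atf6 between 0.60 and 0.93, and every interval on the right lies between -0.47 and 0.34.

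Set beside the promoters shown above, the 8 genes with an ERSE did not move one way. Hsp90b1 and Canx rose in both groups, Creld2 in WT and Dnajc3 in SIRT5F101L, while Calr and Pdia6 fell in SIRT5F101L and Hspa5 and Syvn1 were called in neither. Herpud1 and Dnajb11, which share ERSE-II, differed in direction in WT.

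Along the first principal component of the 31 genes, which held 95.3% of their variance, Control libraries lay at -3.26 to -2.94 and plasmid libraries at 1.15 to 1.93. The genes with the largest weights on it were Atf5 (-0.49), Trib3 (-0.49), Chac1 (-0.30), Asns (-0.30), Atf4 (-0.28), Ddit3 (-0.27) and Herpud1 (-0.26). The chaperones and isomerases had weights between -0.07 and 0.09.

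The comparison of SIRT5F101L with WT addresses the effect of the mutation. None of the 31 genes was called, and 6 of 14253 genes were (0.0421%, with 0.0281% higher and 0.0140% lower). With DESeq2 none of the 31 was called either. At an unadjusted p under 0.05 by edgeR there were 6 of the 31, beside 1701 of all 14253 genes. The 6 were Hsp90b1, Chac1, Creld2, Atf5, Pdia6 and Sdf2l1, whose adjusted p ran from 0.371 to 0.409 by edgeR. The fold changes were small. They ran from -0.24 for Sdf2l1 to 0.16 for Hsp90b1 on the log2 scale. For Atf4 the difference was -0.12 with a 95% interval of -0.27 to 0.03, for Ddit3 0.00 with -0.17 to 0.17, and for Hspa5 -0.08 with -0.22 to 0.05. Hyou1 was the one gene whose plasmid groups did not overlap, with 283 to 295 CPM in SIRT5F101L and 304 to 322 in WT, and its difference of -0.12 was not called (adjusted p 0.447 by edgeR). Over all genes, 1.99% were higher and 2.03% lower without overlap. These intervals bound the differences and do not show that both plasmids act alike.

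That result turned on SIRT5F101L replicate 1. Of the 31 genes, this library lay within the range of the WT libraries for 25 and within that of the other 3 SIRT5F101L libraries for 6. The WT range spans 4 libraries and is entered more easily than a range of 3, so these counts do not compare on equal terms. The shares over all genes were not worked out, so the counts do not set the 31 genes apart. It also stood apart in how level depended on transcript length: the slope of log2 CPM on log2 length was 0.586 there, 0.726 to 0.748 in the other SIRT5F101L libraries, 0.609 to 0.697 in WT and 0.579 to 0.601 in Control. Without it, 1 of the 31 genes was called higher in SIRT5F101L than in WT and 9 were called lower by edgeR, where 6.66% of all genes were higher and 8.58% lower (15.2% together). The higher gene was Hsp90b1 (0.20, adjusted p 0.0192). The lower genes were Sdf2l1 (-0.40, adjusted p 0.000733), Pdia6 (-0.27), Atf5 (-0.27), Chac1 (-0.26), Manf (-0.25), Creld2 (-0.24), Atf4 (-0.20), Derl1 (-0.17) and Dnajb11 (-0.17). Leaving out any other single library gave no call among the 31. With the length trend also taken out, 1 was called higher (Hsp90b1) and 4 lower (Hyou1, Sdf2l1, Manf and Pdia6), where 2.31% and 6.10% of all genes were (8.41% together). The reason why this library differs was not tested. Against Control, leaving it out added Hspa5 and Manf to the genes called lower in SIRT5F101L, 17 in all, where 32.1% of all genes were called lower and 63.2% in either direction.

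**Figure D4:**
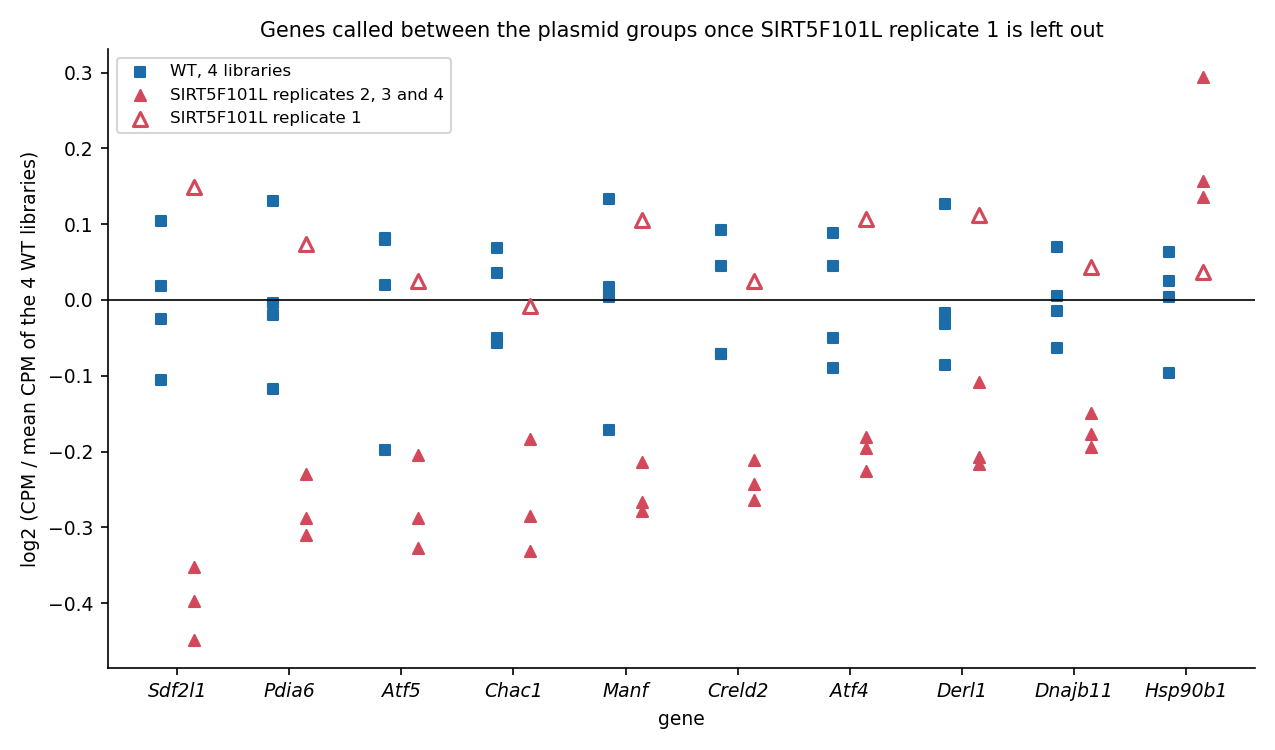
The 10 genes called between the plasmid groups once SIRT5F101L replicate 1 is left out, as the log2 ratio of each library's CPM to the mean CPM of the 4 WT libraries (squares WT, filled triangles SIRT5F101L replicates 2 to 4, open triangle replicate 1). The open triangle lies within the WT range for 8 of the 10 genes and within the range of the filled triangles for none, which the choice of these genes largely sets.

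Other genes of the pathway were taken from lists chosen by function, though with earlier results of these data known. Their counts stand beside 28.7% higher and 28.1% lower over all tested genes in WT, and 30.0% and 30.7% in SIRT5F101L. Of 30 other ER folding enzymes, 5 were called higher and 17 lower in WT, and 5 higher and 22 lower in SIRT5F101L, with median log2 fold changes of -0.32 and -0.39. Rcn3, a calcium-binding protein of the secretory pathway, fell from 424 to 134 and 123 CPM, Fkbp7, a prolyl isomerase, from 99.8 to 33.3 and 34.1, and Qsox1, a sulfhydryl oxidase, from 676 to 339 and 307. The genes that rose were Ero1b, Ero1a, Txndc11 and Dnajc10 in both groups, with Creld1 in WT and Uggt1 in SIRT5F101L, named after their values were seen. ERO1 enzymes re-oxidise the disulfide isomerases. Of 27 tested genes of the translocon, signal peptidase and oligosaccharyltransferase, 4 rose and 15 fell in WT, and 4 rose and 16 fell in SIRT5F101L (medians -0.20 and -0.25). Sec61b, a subunit of the translocation channel, went from 166 to 109 and 85.3 CPM, Krtcap2, a subunit of the oligosaccharyltransferase, from 140 to 76.7 and 76.9, and Sec62 from 284 to 206 and 211. The rising genes, again named after their values were seen, were Sec11c, Spcs3, Stt3b and Sec63 in both groups.

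Of 24 genes of KDEL retrieval and ER export, 7 were called higher and 8 lower in WT, and 9 higher and 9 lower in SIRT5F101L (medians -0.03 and -0.09), shares near those of all genes in WT (28.7% and 28.1%) and a little above them in SIRT5F101L (30.0% and 30.7%). The retrieval receptors Kdelr1 and Kdelr2, which return escaped chaperones to the ER, fell from 112 to 76.3 and 69.4 CPM and from 357 to 242 and 241. In other genes of ER-associated degradation, 6 of 23 were higher and 7 lower in WT, and 6 higher and 11 lower in SIRT5F101L (medians -0.02 and -0.11). Edem3 rose from 91.3 to 149 and 160 CPM, and Os9, a lectin of the degradation complex, fell from 370 to 236 and 216. Other stress signalling genes had 3 of 20 higher and 8 lower in WT, and 3 higher and 7 lower in SIRT5F101L (medians -0.04 and -0.06). Creb3l1, also called OASIS, a membrane-bound factor that drives collagen I genes in bone, fell from 164 to 69.7 and 67.7 CPM. Sesn2, which is itself a target of ATF4, fell from 88.5 to 44.3 and 44.4. The genes that rose were Creb3l2 and Wfs1 in both groups, Traf2 in WT and Eif2ak2 in SIRT5F101L, named after their values were seen.

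Of 35 other ATF4 targets, 5 were called higher and 26 lower in WT, and 4 higher and 28 lower in SIRT5F101L, with a median log2 fold change of -0.51 in both. Pck2, mitochondrial phosphoenolpyruvate carboxykinase, fell from 196 ± 6.56 CPM (SD, n = 4) to 33.3 ± 1.20 and 29.6 ± 4.20. Aldh1l2, a mitochondrial folate enzyme, fell from 116 ± 4.34 to 23.7 ± 1.35 and 23.6 ± 2.38 CPM. The members that rose were Stc2, Atf3, Slc38a2 and Slc7a11 in both groups and Ddit4 in WT, named after their values were seen. Atf3 encodes a stress-induced repressor, and Slc38a2 and Slc7a11 encode amino acid transporters. Chaperones of the cytosol behaved otherwise: of 16 heat shock genes, 10 rose and none fell in WT by edgeR. In WT, 10 of the 16 had an unadjusted p under 0.05 by edgeR, beside 8694 of all 14253 genes. In SIRT5F101L, 9 rose and 2, Hspe1 and Hspb1, fell. Hsph1, a cytosolic HSP110, rose from 225 ± 3.14 to 885 ± 19.6 and 929 ± 32.1 CPM. Hspa1b, an inducible HSP70, rose from 19.9 to 79.0 and 76.7 CPM, though its near-identical copy Hspa1a makes its reads uncertain. Ssr4, Magt1, Mbtps2, Erlec1 and Bak1 are listed at 0 in all libraries, and Tusc3 was not analysed here. Ssr4, Magt1 and Mbtps2 lie on the X chromosome, where every ID is at 0, while Erlec1 and Bak1 are autosomal. The reason was not tested, so these genes cannot be read as silent.

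**Figure D5:**
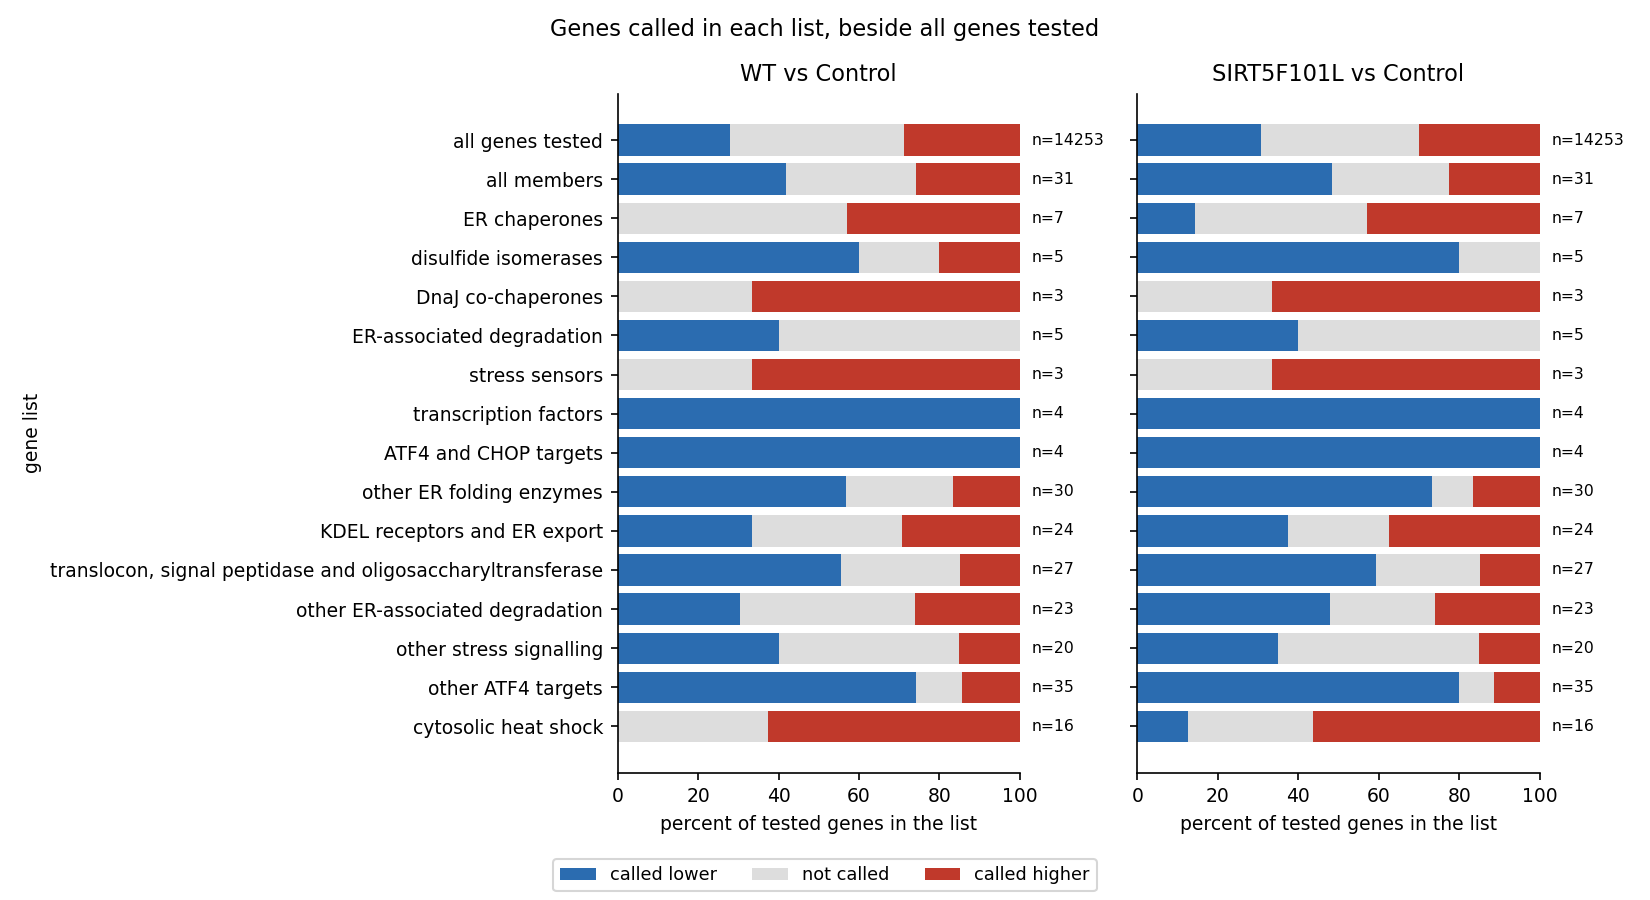
Percent of the tested genes of each list that were called lower (blue), not called (grey) or called higher (red) against Control, left for WT and right for SIRT5F101L, with all 14253 tested genes for comparison. The bars of other ATF4 targets hold 26 and 28 lower genes of 35, and those of cytosolic heat shock 10 and 9 higher genes of 16.

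Markers of the cell types and states in the cultures moved with the same groups. All 12 chondrocyte markers were detected, and their summed level was 8141 to 10169 CPM in Control, 2259 to 2409 in WT and 1796 to 2015 in SIRT5F101L. Col2a1 and Comp, which reached 7213 and 2212 CPM in their highest libraries, weigh most in this sum. Comp, Cnmd and Col9a1 were among the 10 of 12 that fell in each comparison, while Hapln1 and Acan rose in WT and Hapln1 in SIRT5F101L. The 7 fibroblast markers summed to 29903 to 35802 CPM in Control, 9679 to 11090 in WT and 9340 to 10723 in SIRT5F101L. In each comparison 6 of 7 were lower, among them Postn and Col1a2. The remaining gene, Pdgfra, was called higher in each, at 0.39 in WT and 0.62 in SIRT5F101L on the log2 scale. Leukocyte markers, of which Itgam and Cd3e are listed at 0, summed to 81.6 to 89.9, 38.2 to 38.9 and 38.1 to 45.6 CPM. C1qb and Csf1r were among the 8 and 7 of 9 tested that fell, and Ly6g rose from 0 to 2 counts a library in Control to 6 to 17 in the plasmid libraries. Summed markers were 3.17 to 4.82 CPM for endothelium in all libraries. They were 18.0 to 24.8 for osteoblasts in Control and 3.51 to 5.21 in plasmid libraries, and Ibsp made up most of this fall, from a mean of 14.7 CPM in Control to 0.284 in WT and 0.146 in SIRT5F101L, while Alpl was not called, at 2.85, 3.02 and 3.21 CPM. Skeletal muscle markers summed to 7.48 to 9.001 CPM in Control and 1.87 to 4.56 in plasmid libraries. Interferon and inflammatory genes, Ccl2 being listed at 0, summed to 1075 to 1105 CPM in Control, 6358 to 6965 in WT and 6619 to 7527 in SIRT5F101L. Of 17 tested, 16 rose in WT and 15 in SIRT5F101L, among them Mmp3 and Ptgs2, and 1, Ifit3, fell in each. The genes named for going against their list here (Acan, Hapln1, Pdgfra, Ly6g, Alpl, Ifit3), like Col2a1 here and Hspe1 and Hspb1 above, were chosen after their values were seen. In bulk libraries, fewer cells of a type and less RNA per cell cannot be told apart. The part of cell makeup, of the inflammatory genes and of the transfection itself in the changes of the 31 genes was not tested.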

How the data were processed

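Poly(A) RNA of 12 libraries was sequenced as paired reads, per the labels' protocols. The authors deposited unnormalized counts per Ensembl ID, 1 file per library. FastQC 0.11.9, HISAT2 2.2.1, HTSeq 2.0.2, DESeq2 1.38.3 and build GRCm39 (mm39) are named in the submitters' processing notes. The annotation and strand setting are not given in the sources used here, so genes that overlap others or have close copies are uncertain.

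Counts were filtered (filterByExpr), scaled by TMM and fitted over all 12 libraries with edgeR 4.0.16 (R 4.3.3, quasi-likelihood, 9 residual degrees of freedom), with Benjamini-Hochberg adjustment over 14253 genes. The same steps were run on simulated counts in which far fewer genes changed than were called against Control here. That run therefore does not vouch for the test on these data. The biological coefficient of variation was 9.18%, and 1 count equalled 0.0401 to 0.0650 CPM. Alternatives were RLE and upper-quartile scaling, other filters, DESeq2 1.42.0, a robust fit, only the 8 libraries compared, each library left out, and a loess trend of each library on transcript length as offset. The last combined with leaving out SIRT5F101L replicate 1 was chosen after seeing the data. Transcript lengths and overlaps came from GENCODE M21, and copies from BLAST 2.17.0 (at least 95% identity over 100 bases). Replicate numbers follow accession order and pair nothing.

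The 31 genes and all lists were chosen with earlier results of these data known. Of each other list the text names the 2 genes with the lowest adjusted p in each comparison with Control, among those called with a mean of at least 5 CPM, and genes at 0 in all libraries. Other names are marked as chosen after their values were seen.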

Additional observations from a re-analysis of the deposited data

Results flagged for a closer look

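In 102 groups of 4 libraries, the highest or lowest library was screened for a gap to its nearest neighbour above 0.829 of the range of its group (Dixon's criterion), and 12 stood out where chance gives about 5.1, or 1 in 20. SIRT5F101L replicate 1 accounted for 6 of them. It had 64.3 CPM of Sdf2l1 (others of its group 42.5 to 45.4), 169 of Manf (130 to 135), 2129 of P4hb (1822 to 1833), 81.7 of Creld2 (66.9 to 69.4) and 167 of Atf4 (133 to 137). On the second principal component of the 31 genes it lay at 0.458, against -0.508 to -0.393. Control replicate 2 had 67.6 CPM of Dnajb9 (others 57.4 to 58.8), 126 of Edem1 (144 to 148) and 66.4 of Atf6 (76.7 to 77.7). Control replicate 1 had 120 CPM of Herpud1 (others 105 to 108). WT replicate 1 had 1729 CPM of Calr (others 1869 to 1879), and SIRT5F101L replicate 3 had 119 of Xbp1 (others 133 to 135).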

How the results depend on the processing

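Against Control, the numbers of called genes among the 31 were 7 to 11 higher and 12 to 16 lower in WT, and 7 higher and 13 to 18 lower in SIRT5F101L, over all 21 alternatives, while 32.5% to 61.3% of all genes were called in WT and 34.6% to 64.6% in SIRT5F101L, least with no filter beyond 1 count. With upper-quartile scaling, calls were gained for Calr (-0.14), Edem1 (-0.15) and Sel1l (-0.18) in WT and for Hspa5 (-0.16), Manf (-0.22) and Sel1l (-0.17) in SIRT5F101L. For SIRT5F101L against WT, leaving out 1 library gave 0 to 1 higher and 0 to 9 lower, and leaving out SIRT5F101L replicate 1 with the length trend taken out gave 1 higher and 4 lower. Over all genes, 6 were called between the plasmid groups, but 44 with DESeq2, 354 with no filter beyond 1 count, 19 with the length trend taken out, 4 with a filter on a mean of 1 CPM, 2 with the robust fit and 2 with the 8 libraries compared. No paired analysis was possible because the labels carry no replicate numbers.

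Some fold changes that were not called changed sign, all on the log2 scale. For Manf in WT against Control, the value was 0.022 with the length trend taken out, 0.027 with this and without SIRT5F101L replicate 1, and -0.066 to 0.035 with 1 library left out. For Sdf2l1 in SIRT5F101L against Control, it was 0.0021 with the 8 libraries compared, 0.10 with the length trend taken out, 0.0059 with this and without SIRT5F101L replicate 1, and -0.18 to 0.043 with 1 library left out.

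For SIRT5F101L against WT, Herpud1 had 0.0013 with RLE scaling, 0.0012 with upper-quartile scaling and 0.0011 with DESeq2. The values were Sel1l -0.0035, Edem1 -0.0012, Eif2ak3 -0.0015 and Ddit3 -0.0014 with no filter beyond 1 count. With the length trend taken out they were Herpud1 0.038, Sel1l -0.072, Edem1 -0.064, Atf6 -0.021, Eif2ak3 -0.028, Xbp1 0.0062 and Asns 0.013. With this and without SIRT5F101L replicate 1 they were Dnajc3 -0.024, Herpud1 0.040, Sel1l -0.087, Edem1 -0.10, Atf6 -0.046, Eif2ak3 -0.019, Xbp1 0.0085, Trib3 -0.0089 and Asns 0.0053. With 1 library left out, the ranges were -0.046 to 0.0063 for Pdia3, -0.054 to 0.034 for Herpud1, -0.026 to 0.046 for Sel1l, -0.033 to 0.026 for Edem1, -0.033 to 0.034 for Eif2ak3, -0.077 to 0.010 for Xbp1, -0.085 to 0.050 for Ddit3, -0.076 to 0.098 for Trib3, -0.065 to 0.023 for Asns and -0.075 to 0.018 for Ppp1r15a. The cause was not tested.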
